A study of Arabidopsis thaliana with 42 samples.

Results

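The hypocotyl is the short stem between root and seedling leaves, and 101 of the 22746 probe sets on the array were chosen by their signal in Arabidopsis thaliana hypocotyls, which stood far above that in every other shoot and stem sample of the same strain. The level used for the choice was the mean over 3 arrays of log2(signal + 8), where 8 is an offset that damps noise at low signals and the 64 AFFX controls do not enter. A probe set was kept where its hypocotyl level lay at least 2.5 above the highest of the 6 other Col-0 groups, a difference called the margin here, and where its mean hypocotyl signal was over 40. Of 104 probe sets past both limits, JAL22, JAL33 and JAL34 were left out by name. They encode jacalin-related lectins that occur with endoplasmic reticulum bodies, and had mean hypocotyl signals of 1098 ± 48.2, 1951 ± 48.2 and 1603 ± 26.8. NAI2 and PYK10, left out with them, had margins of 1.61 and 1.38 and did not reach the limit. Since these values chose the members, they are given below as a description with no test.

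All groups held 3 samples, lettered A, B and C. The hypocotyl, the second internode of the stem, the first node, the vegetative apex with young leaves, the vegetative apex, the transition apex before bolting and the inflorescence apex after bolting came from Col-0. Inflorescence apices made up 7 further groups, of the mutants ag-12, ap1-15, ap2-6, ap3-6, clv3-7, lfy-12 and ufo-1, all listed with Col-0 as genetic background. Every plant grew on soil in continuous light at 23 °C and 65% relative humidity. The node samples took in about 1 mm of stem on either side of the branching point, and the Col-0 inflorescence apices held flowers up to stages 7 and 8. The labels used here give no plant age, no treatment, and no word on whether separate plants went into the 3 samples of a group. Organ and plant age therefore cannot be told apart, and the p-values cover no more than the variation among these arrays, part or all of which could be technical. No root sample is among the 14 groups, so a high hypocotyl signal says nothing of the level in roots.

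Hypocotyl cells lengthen rather than divide while a seedling emerges, and the organ later thickens by a cambium that lays down vascular tissue and a protective corky layer. Walls that block water carry suberin, a polyester of fatty acids and phenolic compounds with associated waxes. Class III peroxidases couple phenolic units in lignin and suberin, GDSL-type lipases can link or cleave polyester units, lipid-transfer proteins bind fatty compounds in the wall, and acyltransferases attach phenolic acids to fatty alcohols. Brassicaceae hypocotyls also hold much chemical defence, in which glucosidases release toxic products from stored glucosides.

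The members' signals were a clear feature of the whole hypocotyl array. Summed over the 101 probe sets they made up 1.40% of the summed signal on each hypocotyl array. They made up 0.0511% in the internode, 0.0513% in the node, 0.0654% in the vegetative apex with young leaves, 0.0844% in the vegetative apex, 0.0442% in the transition apex and 0.0398% in the Col-0 inflorescence apex, and between 0.0267% and 0.0383% in the 7 mutants. Mean hypocotyl signals of the members lay between 54.6 and 3147 with a median of 204, and signals in the next-highest Col-0 group between 0.785 and 332 with a median of 11.5. Margins lay between 2.51 and 6.02 with a median of 3.23, 61 of them over 3 and 23 over 4. In 39 members all 6 other group means were under the offset of 8, which is near the background, so the size of those margins is set in part by the offset. The same 2 limits, applied to each other Col-0 group in turn, gave 6 probe sets in the internode, 2 in the node, 0 in each of the vegetative apex with young leaves, the vegetative apex and the transition apex, and 2 in the inflorescence apex. These counts depend on which organs were sampled. The vegetative apex was in 2 groups, each of which had to exceed the other by 2.5, while the hypocotyl was in only 1.

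**Figure D1:**
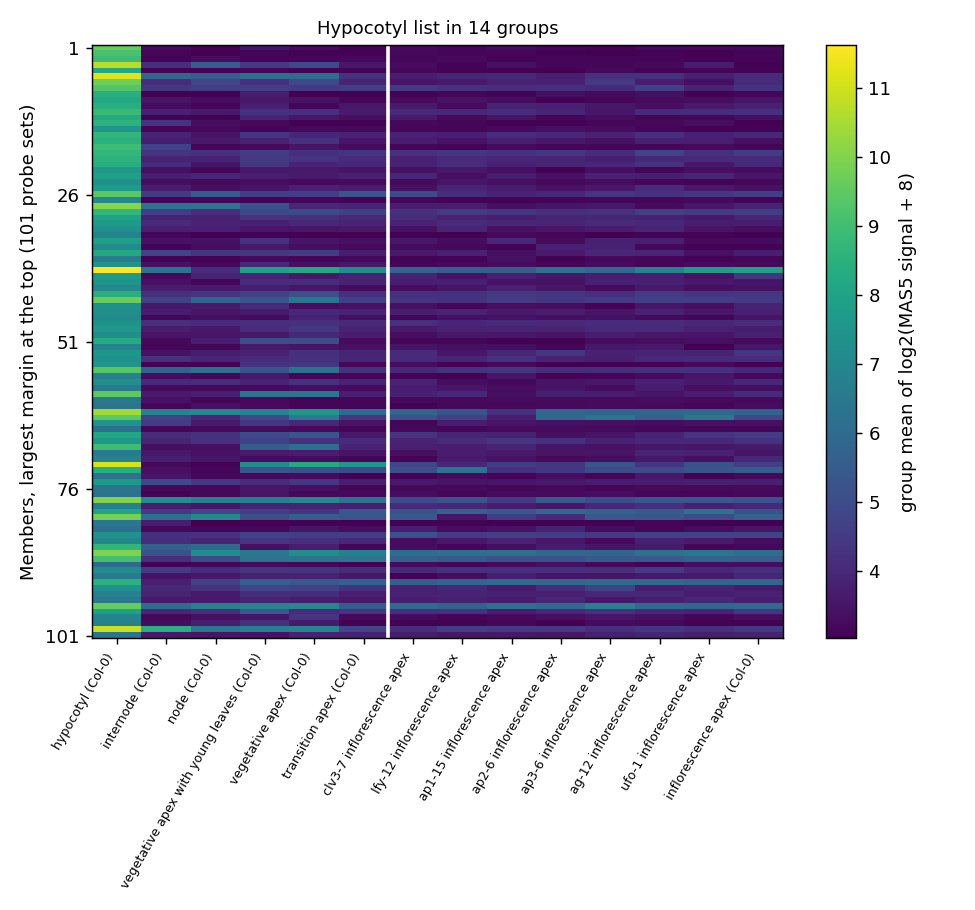
Group means of log2(signal + 8) for the 101 members (down the page, largest margin at the top) in the 14 groups (across), each colour the mean of 3 arrays. The hypocotyl column at the left is the bright one, and the columns right of the white line are inflorescence apices, with Col-0 last.

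Replicate hypocotyl arrays lay close together. The coefficient of variation of the 3 hypocotyl signals had a median of 5.56% over the members and reached 23.0%, against a median of 5.80% over all probe sets with a hypocotyl mean over 40. The probe set for the peroxidase genes AT2G38390 and AT2G38380 was the one at 23.0%, with 873, 594 and 602 on hypocotyl arrays A, B and C. In 94 members the hypocotyl level was also at least 2.5 above all 7 mutant apices, and the smallest such difference was 1.81. The choice did not use the mutants. It had already set the same organ of Col-0 at least 2.5 below the hypocotyl, so this is a description and no check. The plot of all members across the 14 groups shows this low level in mutants beside that in Col-0.

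The annotation named a single gene for 52 members, several genes for 3, and none for 46, against 13513, 503 and 8730 of all probe sets. The unnamed members are given by probe set only, and nothing is said of what they encode. The largest margin of all belonged to one of them, 250500_at, with hypocotyl signals of 834, 716 and 754 against 0.227 to 8.26 on the 18 other Col-0 arrays. The 5 members of highest hypocotyl signal were unnamed as well: 263046_at at 3147 ± 141, 245736_at at 2326 ± 102, 253073_at at 2181 ± 266, 258791_at at 1938 ± 23.1 and 252607_at at 1686 ± 37.9 (mean ± SD, n = 3). Signals of different probe sets depend on their own sequences and are not compared with each other here.

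Class III peroxidases were the family with most members among the named ones, with 8 probe sets for 10 genes. AT4G36430 had hypocotyl signals of 414, 463 and 447, against 1.41 to 13.5 on the 18 other Col-0 arrays. The probe set shared by the neighbours AT2G18150 and AT2G18140 had hypocotyl signals of 283, 362 and 359.9, against 0.261 to 7.93 elsewhere in Col-0, and it cannot tell the pair apart. AT3G21770 stood out in the other direction, since it was well above background in other organs too. Its hypocotyl signals were 968, 961 and 1003, against 131, 147 and 174 in the vegetative apex and 138, 153 and 130.4 in the node. The remaining peroxidase members AT1G68850, AT4G30170, AT5G64100 and AT2G35380 averaged between 73.3 and 142 in the hypocotyl and at most 12.2 in any other Col-0 group.

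The rest of the peroxidase family did not share one pattern. The family has 73 listed genes, a list added after the members were known, and 58 probe sets covered 61 of them. Hypocotyl was the highest of the 7 Col-0 groups in 26 of the 58, the median margin was -0.04, and 17 margins were over 1. Among the 26 probe sets with a group mean of at least 40 somewhere, 16 (61.5%) were highest in the hypocotyl, against 12.3% of 14483 such probe sets on the whole array. The 8 members are among those 16, so this share is a description of the choice. The next in line was AT5G66390, with a mean of 57.1 in the hypocotyl and a margin of 2.36. PRXR1 had its highest mean in the internode, at 4986, beside 4115 in the hypocotyl, and AT4G16270 and AT5G64110 had margins of -2.77 and -2.81.

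**Figure D2:**
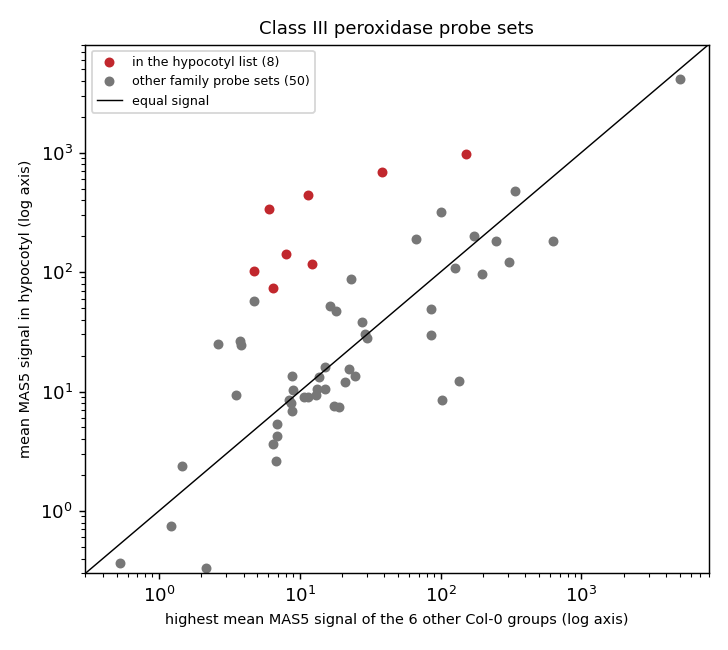
Mean hypocotyl signal (log axis, up the page) against the highest mean signal of the 6 other Col-0 groups (log axis, across) for the 58 class III peroxidase probe sets, one point each. The 8 members lie far above the line of equal signal, and the other 50 fall on both sides of it.

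Further members belong to families that work on wall lipids and wall proteins. The 3 GDSL-type lipase genes had similar margins: AT2G23540, AT1G74460 and AT5G37690 averaged 374 ± 20.02, 399.6 ± 17.9 and 415 ± 14.4 in the hypocotyl. AT2G23540 had single-array signals of 393, 353 and 375 in the hypocotyl, against 11.7, 15.2 and 9.07 in the internode, the only other Col-0 group where its mean passed the offset. The 6 genes of lipid-transfer type were AT3G22620, AT2G18370, AT2G48130, AT4G12500, AT3G58550 and AT4G12490, with hypocotyl means between 156 and 245 and margins between 2.57 and 4.02. FACT, the acyltransferase that joins caffeic acid to fatty alcohols of suberin-associated waxes, had 135, 138 and 141 in the hypocotyl, against 5.22 to 17.8 elsewhere in Col-0. A related acyltransferase, AT3G50300, averaged 111 ± 7.28 in the hypocotyl and 12.3 ± 3.66 in the vegetative apex. The hydroxyproline-rich glycoprotein genes AT4G38080 and AT5G09480, of a class of structural wall proteins, had 583, 545 and 562 and 294, 309 and 285 in the hypocotyl. Elsewhere in Col-0 AT4G38080 lay at 0.222 to 3.04 and AT5G09480 at 0.552 to 5.33, so neither passed the offset on any of those 18 arrays.

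**Figure D3:**
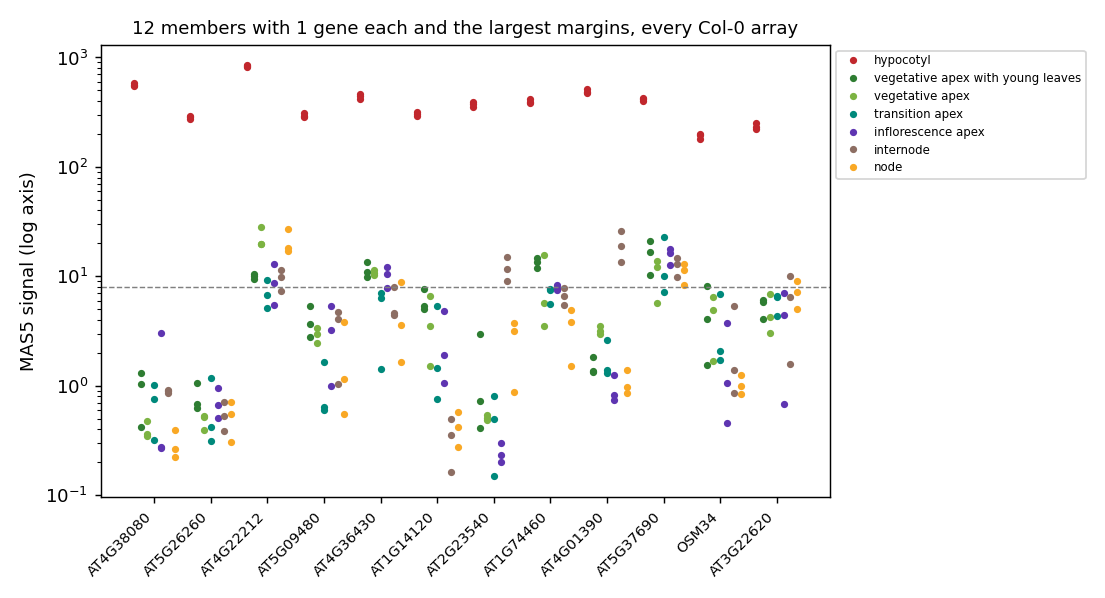
Signals on all 21 Col-0 arrays (log axis) for the 12 members with a single gene and the largest margins, one point per array, hypocotyl at the left of each gene. The dashed line marks the offset of 8, and in all 12 genes the 3 hypocotyl points lie above the other 18.

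Smaller families of enzymes that act on small molecules also had members. The SABATH methyltransferases, which put methyl groups on small acids, were AT5G38020, AT5G37990 and NAMT1, the nicotinate methyltransferase. AT5G38020 had 405, 419.9 and 418 in the hypocotyl, against 7.37 to 25.6 elsewhere in Col-0. The cytochrome P450 gene AT3G44970 had 751, 667 and 688 in the hypocotyl, against 64.7, 80.7 and 73.4 in the vegetative apex with young leaves and 71.8, 71.7 and 84.7 in the vegetative apex. It was near background in the later organs, at most 11.0 on any array of the internode, node, transition apex or inflorescence apex. The terpene synthase gene AT4G20230, the oxygenase gene AT1G14120 and the berberine-type oxidase gene AT4G20860 averaged 168 ± 6.77, 303 ± 12.5 and 105 ± 6.82 in the hypocotyl. BGLU47, a beta-glucosidase, had 871, 810.4 and 768 in the hypocotyl, against 75.8, 77.6 and 74.2 in the vegetative apex and 45.8, 47.3 and 45.4 in the node. The probe set shared by BGLU22 and BGLU21, close relatives of PYK10 that cleave the coumarin glucoside scopolin, had 100.4, 115 and 116 in the hypocotyl and at most 5.90 elsewhere in Col-0.

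Genes linked to defence proteins followed. AT4G22212, of the defensin-like family of small antimicrobial peptides, had 816, 850.3 and 831 in the hypocotyl, against 19.9, 28.3 and 19.9 in the vegetative apex, its next-highest group. OSM34, the osmotin gene of the pathogenesis-related class, had 181, 196 and 199.9 in the hypocotyl and 0.455 to 8.12 elsewhere in Col-0. The chitinase family gene AT2G43620 averaged 268 ± 8.18 in the hypocotyl and 33.0 ± 3.01 in the transition apex. AT2G21100, of the dirigent family that steers phenolic coupling, averaged 179 ± 9.93 in the hypocotyl and at most 12.5 elsewhere in Col-0. The transporter gene AT5G38030, of the MATE family that exports organic compounds, averaged 146 ± 7.26, against 7.94 ± 2.16 in the vegetative apex.

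Few of the named members belong to families of regulators. ATC, a relative of the flowering repressor TFL1, had 87.3, 88.8 and 71.4 in the hypocotyl and 0.490 to 8.08 elsewhere in Col-0. AT1G18810 belongs to the phytochrome kinase substrate family, some members of which act in hypocotyl bending towards light. It averaged 157 ± 16.7 in the hypocotyl and 18.9 ± 1.89 in the vegetative apex with young leaves. AT5G06800, of the MYB-like type, averaged 101 ± 10.8 in the hypocotyl and 9.96 ± 1.71 in the vegetative apex. Outside these families, SP1L2 belongs to the SPIRAL1-like family that binds microtubules. It had 915, 969.6 and 886 in the hypocotyl, against 134, 128 and 136 in the node and 60.9, 69.1 and 64.0 in the internode. Among the rest, AT5G26260, AT5G26280, AT3G20370 and AT4G01390 share a TRAF-like domain and had hypocotyl means between 177 and 490. AT5G26260 had 295, 287 and 271 in the hypocotyl, against 0.305 to 1.19 elsewhere in Col-0.

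Several members were close in gene order on the TAIR10.1 annotation. The methyltransferase genes AT5G37990 and AT5G38020 lie 3 steps apart on chromosome 5, and the transporter gene AT5G38030 follows AT5G38020 directly. AT4G12490 and AT4G12500, both of lipid-transfer type, lie 2 steps apart on chromosome 4. AT5G26260 and AT5G26280 lie 3 steps apart, and AT5G26270 between them had a margin of 0.04. AT2G18150 and AT2G18210 lie 8 steps apart on chromosome 2, with margins of -0.02, 0.13 and -0.13 for the 3 measured genes between them. The single-gene and shared probe sets together named 11, 14, 7, 12 and 14 genes on chromosomes 1 to 5.

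Margins ran on without a break at the limit of 2.5. Just inside the margin of 2.5 were AT2G35380 at 2.51, 258791_at at 2.52 and AT4G20860 at 2.52. Just outside were AT4G28940 at 2.49, NANA at 2.46 and AT2G47550 at 2.43. The lowest hypocotyl means inside were 54.6 for NAMT1, 64.2 for AT1G54540 and 64.5 for 249881_at. With a limit of 20 in place of 40 the list held the same 101 probe sets. The margin of 2.5, taken with the offset, already shuts out most hypocotyl means between 20 and 40. The list could therefore hardly have changed, and its stability was not tested by the lower limit.

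Few marker genes had a probe set under their name: 1 of 9 floral, 1 of 8 meristem, 2 of 12 xylem and 2 of 8 root hair markers. The floral gene separated the hypocotyl samples from Col-0 transition and inflorescence apices, and the 2 xylem genes from the stem. The floral and stem cell markers did not separate the hypocotyl samples from vegetative apices, whereas other markers did. UFO, a floral gene, averaged 1.37 in the hypocotyl, against 23.5 in the transition apex and 27.7 in the inflorescence apex, but was as low in both vegetative groups, at 1.57 and 1.73. It was also under the offset in the internode (1.59), the node (0.56) and the ap2-6 inflorescence apex (3.96). CLV3, the stem cell signal, averaged 2.52 in the hypocotyl and between 0.928 and 6.66 in the 6 other Col-0 groups, under the offset in all 7, so it tells nothing apart here. The xylan synthesis genes IRX15 and GUT2 averaged 29.4 and 95.2 in the hypocotyl, against 933 and 985 in the internode. Summed, they reached 118 to 132 on the hypocotyl arrays. That sum was 44.8 to 52.9 in the vegetative apex with young leaves and 44.9 to 60.1 in the vegetative apex. The 5 measured photosynthesis markers summed to between 4153 and 4242 on the hypocotyl arrays, against 4694 to 4822 in the vegetative apex, 9203 to 10153 in the vegetative apex with young leaves and 10197 to 11964 in the internode. The root hair expansins EXPA7 and EXPA18 averaged 8.45 and 11.1 in the hypocotyl, with margins of -0.04 and -0.28. Of 23 listed genes linked to hypocotyl growth 5 were measured, and 3 of these were highest in the hypocotyl. Among them was the wall-loosening enzyme gene XTH18, at 144 in the hypocotyl and 78.9 in the vegetative apex with young leaves. The 5 genes summed to 234 to 295 on the hypocotyl arrays and 283 to 288 in the internode. Their sum therefore did not set the hypocotyl apart from the internode. None of 13 endodermal barrier, 5 phloem or 20 ion and nitrate transport markers had a probe set under its name, so these were not analysed here. Of 7 measured endoplasmic reticulum body genes 6 were highest in the hypocotyl, and JAL23 was not, at 73.2 there against 525 in the inflorescence apex. Genes left out of the list by name are among the 7, so this is a description and no check.

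Away from the hypocotyl the members leaned towards the young shoot. The next-highest group was the vegetative apex in 31 members (30.7%) and the vegetative apex with young leaves in 29 (28.7%), whereas 13.1% and 14.2% of all probe sets had their highest level of the 6 groups there. It was the internode in 16 members (15.8%, against 23.9% of all probe sets), the inflorescence apex in 13 (12.9%, against 22.1%), the node in 8 (7.92%, against 11.3%) and the transition apex in 4 (3.96%, against 15.3%). These shares are a description, and many of the levels behind them are near background: between 49 members in the 2 vegetative groups and 71 in the transition apex had a mean under the offset.

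Differences among the 6 other Col-0 groups were tested with limma. The hypocotyl arrays did not enter, but the rule also used the highest of these 6 groups, which caps the members' levels in all 6. Calls are at a Benjamini-Hochberg adjusted p under 0.05 over all probe sets fitted. Of all 101 members 60 differed among the 6 groups when no filter on low signals was set, a call made for 77.3% of all probe sets. With the filter that kept 15722 probe sets, 27 members stayed in and all 27 differed, beside 97.9% of all; those 27 are the ones with signal in another organ, not all members. In these bulk samples fewer cells of a type and less RNA per cell cannot be told apart. The 3 arrays of each group limit the precision of every difference below, which is given on the log2(signal + 8) scale with ± its standard error.

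In the comparison of the transition apex with the vegetative apex, 29 of all 101 members were lower in the transition apex (28.7%, against 16.9% of all probe sets), 2 were higher (1.98%, against 20.7%) and 70 were not called, with 37.6% of all probe sets called. At least 2-fold lower were 15 members, beside 3.17% of all probe sets. The median difference was -0.18 over the 101 members and 0.00 over all probe sets. These counts are without a filter on low signals. With the filter, 19 of the 27 members left were lower, 2 higher and 6 not called, beside 53.9% of all probe sets called (22.9% lower, 31% higher), and 12 were at least 2-fold lower, beside 4.43%. A member could pass that filter by its signal in the vegetative groups alone, in which case a lower level in the transition apex was in part built in. With the filter set on the internode, node and inflorescence apex arrays alone, which was chosen after seeing the data, 19 members were left, of which 13 were lower and 2 higher, beside 54.2% of all probe sets called.

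AT3G44970, the P450 gene, had 4.99, 4.18 and 7.63 in the transition apex, against 71.8, 71.7 and 84.7 in the vegetative apex, and fell by 2.63 ± 0.23 (adjusted p = 2.2e-09). AT3G20370, a TRAF-like gene, had 6.80, 5.67 and 6.83 in the transition apex, against 61.2, 56.3 and 63.9 in the vegetative apex, and fell by 2.25 ± 0.18 (adjusted p = 6.1e-10). In both genes the transition arrays lay under the offset and far below every vegetative array. BGLU47 averaged 17.2 ± 2.60 in the transition apex and 75.9 ± 1.71 in the vegetative apex, a fall by 1.74 ± 0.12 (adjusted p = 2.99e-11). The glutaredoxin gene AT3G62930 averaged 4.03 ± 2.56 in the transition apex and 31.0 ± 5.16 in the vegetative apex, a fall by 1.71 ± 0.17 (adjusted p = 2.09e-08). AT3G44970, AT3G20370 and AT3G62930 were not kept by the filter on internode, node and inflorescence apex arrays. They were tested because of their vegetative signals, so their low transition levels were in part built in. BGLU47 was kept by that filter, and its fall was still called there (adjusted p = 2.91e-11). Some unnamed members fell too, and 2 examples were picked after their values were seen. Probe set 266965_at fell by 2.16 ± 0.15 (adjusted p = 1.09e-10), and 258791_at fell by 2.14 ± 0.09 (adjusted p = 1.18e-14). Other unnamed members were not called, such as 247444_at (0.36 ± 0.19, adjusted p = 0.107) and 254818_at (-0.05 ± 0.22, adjusted p = 0.861).

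The exceptions were the chitinase family gene AT2G43620 and the probe set of the peroxidase genes AT2G38390 and AT2G38380. AT2G43620 had 32.4, 30.3 and 36.2 in the transition apex, against 9.82, 12.3 and 15.8 in the vegetative apex, and rose by 1.00 ± 0.13 (adjusted p = 1.35e-06). The peroxidase probe set averaged 31.6 ± 8.27 in the transition apex and 16.3 ± 4.09 in the vegetative apex, and rose by 0.70 ± 0.15 (adjusted p = 0.000566). Neither gene's 3 transition arrays overlapped with its 3 vegetative arrays. Of 21 tested peroxidase probe sets in all, members among them, 10 were lower in the transition apex, 5 higher and 6 not called. Of all probe sets tested 53.9% were called, 22.9% lower and 31% higher. Beside these changes the 7 endoplasmic reticulum body genes, which are not members, summed to 711 to 737 in the transition apex and 2151 to 2203 in the vegetative apex. The 5 photosynthesis markers summed to 2736 to 2866 in the transition apex and 4694 to 4822 in the vegetative apex. Whether either difference in summed signal had a part in the members' change was not tested.

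**Figure D4:**
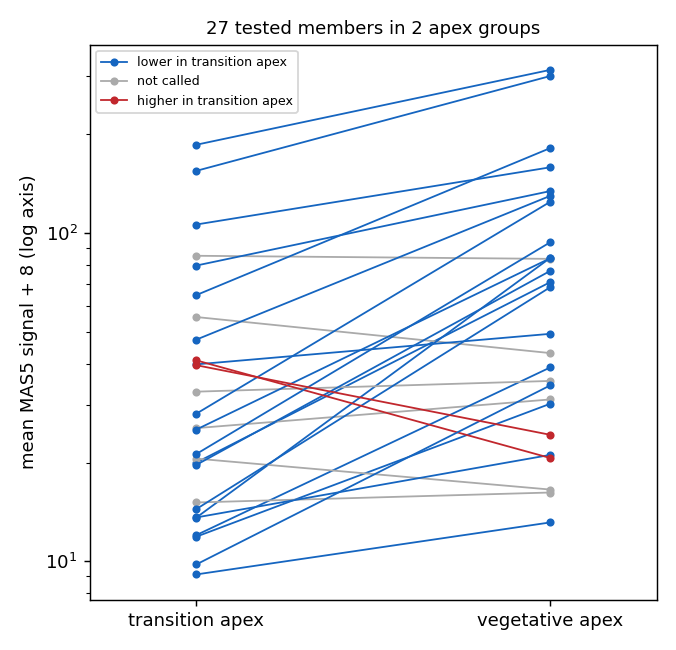
Mean signal + 8 (log axis, n = 3) of the 27 members that passed the filter in the transition apex (left) and the vegetative apex (right), each line one member. The 19 lines called lower in the transition apex rise to the right, and the 2 called higher fall to the right.

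Young leaves were sampled together with the vegetative apex in one group and left off in the other. Of the 27 members that passed the filter 11 were lower in the vegetative apex with young leaves, 2 were higher and 14 were not called, beside 48.4% of all probe sets called (29.5% lower, 19% higher). With 48.1% of the tested members called, their share was near that of the array as a whole. Over all 101 members without the filter, 14 were lower and 9 higher, beside 32.9% of all probe sets called (19.8% lower, 13.1% higher). AT4G12490, of lipid-transfer type, had 39.3, 36.5 and 27.0 with young leaves, against 9.38, 10.6 and 5.70 without, and rose by 1.35 ± 0.24 (adjusted p = 8.71e-05). BGLU47 averaged 30.8 ± 3.24 with young leaves and 75.9 ± 1.71 without, a fall by 1.11 ± 0.12 (adjusted p = 7.06e-08). The peroxidase gene AT3G21770 averaged 80.3 ± 15.5 with young leaves and 151 ± 21.3 without, a fall by 0.85 ± 0.12 (adjusted p = 5.54e-06). SP1L2 and AT3G20370 fell by 0.54 ± 0.11 (adjusted p = 0.00053) and by 0.57 ± 0.18 (adjusted p = 0.0112); the call on AT3G20370 was lost without young-leaves replicate C (-0.47, adjusted p = 0.0632) and with the offset divided by 4 (-0.64, adjusted p = 0.145).

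Within the bolted stem the internode was set against the node, and calls went in both directions, as on the array as a whole. Of the 27 tested members 11 were lower in the internode, 6 were higher and 10 were not called, beside 57.5% of all probe sets called (30.1% lower, 27.5% higher). With 63% of the tested members called, their share was near that of all probe sets. Over all 101 members without the filter, 13 were lower, 9 higher and 79 not called. That was 21.8% called, beside 40.6% of all probe sets (20.7% lower, 20% higher). AT3G21770 had 27.7, 24.4 and 32.4 in the internode, against 138, 153 and 130.4 in the node, and fell by 2.04 ± 0.12 (adjusted p = 4.2e-12). SP1L2 had 60.9, 69.1 and 64.0 in the internode, against 134, 128 and 136 in the node, and fell by 0.96 ± 0.11 (adjusted p = 2.89e-07). Arrays of the 2 groups did not overlap for either gene. BGLU47 fell by 1.03 ± 0.12 (adjusted p = 1.13e-07), and the peroxidase probe set of AT2G38390 and AT2G38380 by 1.01 ± 0.15 (adjusted p = 7.03e-06). AT5G38020 was higher by 0.51 ± 0.20 (adjusted p = 0.0394), but its arrays overlapped, at 7.86, 25.4 and 19.99 in the internode and 10.2, 10.5 and 7.37 in the node. Its call was lost when replicate B or C of the internode or any node replicate was left out (adjusted p = 0.052 to 0.256).

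Added bacterial poly-A control transcripts marked the node and the Col-0 inflorescence apex arrays, the only ones whose sample titles carry a 2 after the letter. The control dap stood at 8.28 in the node and 7.85 in the Col-0 inflorescence apex on the log2(signal + 8) scale, against 3.18 to 3.39 in the other 12 groups. Its part in the differences with these 2 groups was not tested. Without both groups 26 of the 27 tested members still differed among the 4 others, beside 94.3% of all probe sets.

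The internode was also set against the Col-0 inflorescence apex. Of the 27 tested members 11 were higher in the internode, 8 were lower and 8 were not called, beside 85.7% of all probe sets called (38.1% higher, 47.6% lower). Over all 101 members without the filter, 17 were higher and 12 lower, beside 65.2% of all probe sets called (28.4% higher, 36.8% lower). AT4G29270, of acid phosphatase type, had 1.06, 6.45 and 0.816 in the internode, against 40.3, 41.8 and 39.8 in the inflorescence apex, and fell by 2.21 ± 0.16 (adjusted p = 1.81e-11). AT3G21770 fell by 0.95 ± 0.12 (adjusted p = 2.06e-07) and AT2G43620 by 0.74 ± 0.13 (adjusted p = 1.74e-05). SP1L2 was higher by 0.45 ± 0.11 (adjusted p = 0.00106), with 64.7 ± 4.15 in the internode and 45.8 ± 9.99 in the inflorescence apex. AT3G62930 fell by 0.38 ± 0.17 (adjusted p = 0.0408), which turned to 0.27 (adjusted p = 0.0831) with the mean of the 7 mutants in place of the Col-0 apex. Without inflorescence apex replicate A or C, or internode replicate B or C, its call was lost (adjusted p = 0.0681 to 0.121).

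In the inflorescence apices of mutants with altered flowers few members were measurable. LFY, AP1, AP2, AP3, AG and UFO act in flower and floral organ identity, and CLV3 limits the stem cell pool. The filter kept 13 members, of which 11 differed among the 8 genotypes, beside 70.1% of all probe sets. Over all 101 members without the filter 20 differed, beside 45.9%. The median of the members' mean signals was between 3.90 and 5.42 in the 7 mutants and 5.15 in Col-0, all under the offset.

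Counts against the Col-0 apex were small throughout, and the 7 comparisons share the same 3 Col-0 arrays. On these arrays the added control dap stood at 7.85 on the log2(signal + 8) scale, against 3.24 to 3.39 in the 7 mutants. In every comparison of a mutant with Col-0, genotype and this difference between arrays cannot be told apart. Over all 101 members, without the filter, 0 were higher and 3 lower in clv3-7, beside 11.3% of all probe sets called (5.9% higher, 5.36% lower). In lfy-12 2 were higher and 6 lower, beside 16.3% (7.98% higher, 8.31% lower). In ap1-15 1 was higher and 10 lower, beside 17.3% (8.27% higher, 9% lower). In ap2-6 3 were higher and 7 lower, beside 12.9% (6.08% higher, 6.86% lower). In ap3-6 6 were higher and 4 lower, beside 14.5% (6.6% higher, 7.86% lower). In ag-12 1 was higher and 3 lower, beside 15.8% (7.29% higher, 8.52% lower), and in ufo-1 4 were higher and 3 lower, beside 11.4% (5.49% higher, 5.96% lower). Every one of the 7 counts, taken over both directions, was a smaller share of the 101 members than of all probe sets. Between 67 members in ag-12 and 75 in ap1-15, ap2-6 and ufo-1 had a mean under the offset, where a difference is hard to call. Among the 13 members that passed the filter, 2 (15.4%) were called in clv3-7, beside 19.1% of all probe sets, and 6 (46.2%) in lfy-12, beside 27%. In ap1-15 7 (53.8%) were called, beside 27.5%, and in ap2-6 6 (46.2%), beside 20.7%. In ap3-6 6 (46.2%) were called, beside 23.8%, in ag-12 3 (23.1%), beside 26.9%, and in ufo-1 4 (30.8%), beside 18.8%. These shares were above those of all probe sets in lfy-12, ap1-15, ap2-6, ap3-6 and ufo-1, and below them in clv3-7 and ag-12. The filter keeps members with signal on at least 3 of the 24 arrays, so these 13 do not stand for the list.

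SP1L2 had the largest called difference with Col-0 among members with a gene name. Its signals were 3.14, 6.72 and 2.01 in lfy-12 and 6.92, 8.60 and 11.9 in ap2-6, against 34.7, 49.0 and 53.9 in Col-0. It fell by 2.17 ± 0.17 (adjusted p = 1.58e-10) in lfy-12 and by 1.64 ± 0.17 (adjusted p = 3.5e-08) in ap2-6. In ap1-15 it averaged 16.4 ± 2.55 and fell by 1.13 ± 0.17 (adjusted p = 1.04e-05), and in ufo-1 it averaged 24.5 ± 4.34 and fell by 0.72 ± 0.17 (adjusted p = 0.00338). Against the mean of the other 6 mutants, which leaves the Col-0 arrays out, the falls in lfy-12 and ap2-6 were still called (-1.41 and -0.79), while the difference was -0.19 in ap1-15 (adjusted p = 0.288) and 0.29 in ufo-1 (adjusted p = 0.112).

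AT4G29270 moved in both directions. Its signals were 78.9, 70.1 and 62.9 in lfy-12, 11.5, 16.0 and 5.52 in ap1-15 and 12.5, 14.6 and 13.0 in ap2-6, against 40.3, 41.8 and 39.8 in Col-0. All lfy-12 arrays lay above, and all ap1-15 and ap2-6 arrays below, every Col-0 array. It rose by 0.69 ± 0.18 (adjusted p = 0.00521) in lfy-12, fell by 1.39 ± 0.18 (adjusted p = 9.81e-07) in ap1-15 and fell by 1.19 ± 0.18 (adjusted p = 1.79e-05) in ap2-6, and against the other 6 mutants these were 1.46, -0.97 and -0.72, all called. Smaller falls were called in ag-12 (-0.60 ± 0.18, adjusted p = 0.0137), ap3-6 (-0.58 ± 0.18, adjusted p = 0.0186) and clv3-7 (-0.52 ± 0.18, adjusted p = 0.0415). Against the other 6 mutants these 3 were -0.04, -0.02 and 0.05 and were not called (adjusted p = 0.842, 0.93 and 0.808). The clv3-7 call was also lost on leaving out any array but clv3-7 replicate C (adjusted p = 0.0799 to 0.193), and the ap3-6 call without ap3-6 replicate A or B or Col-0 replicate B (adjusted p = 0.0559 to 0.0806).

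AT2G43620, the chitinase family gene, was higher in 4 mutants. Its signals were 71.5, 73.9 and 65.8 in ufo-1 and 50.4, 64.5 and 55.8 in ap2-6, against 26.6, 28.0 and 31.5 in Col-0, and the groups did not overlap. It rose by 1.096 ± 0.13 (adjusted p = 4.96e-07) in ufo-1 and by 0.82 ± 0.13 (adjusted p = 2.61e-05) in ap2-6, and by 0.70 and 0.38 against the other 6 mutants, where both were called. It also rose by 0.55 ± 0.13 (adjusted p = 0.00182) in lfy-12 and by 0.48 ± 0.13 (adjusted p = 0.00681) in ap3-6. These 2 were 0.07 and -0.01 against the other 6 mutants (adjusted p = 0.651 and 0.939). The peroxidase gene AT3G21770 differed among the 8 genotypes (adjusted p = 0.00689, limma F test), but was not called in any of the 7 comparisons with Col-0, where its differences lay between -0.29 and 0.27.

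Of the members without a gene name, 2 were picked after their values were seen. Probe set 263046_at fell against Col-0 in 6 of the 7 mutants. It fell by 1.11 ± 0.12 (adjusted p = 7.99e-08) in ag-12, the smallest of the 6, and by 2.36 ± 0.12 (adjusted p = 1.06e-14) in ap1-15, the largest, and was not called in ufo-1 (-0.15 ± 0.12, adjusted p = 0.401). Its signals were 41.8, 33.8 and 44.2 in ap1-15, 44.6, 36.9 and 40.7 in lfy-12 and 247, 177 and 219 in ufo-1, against 250.0, 267 and 199 in Col-0. The ufo-1 arrays overlapped with the Col-0 arrays, and those of ap1-15 and lfy-12 lay far below. Probe set 266965_at had 76.4, 81.7 and 76.4 in ufo-1, 79.9, 77.7 and 69.1 in ap3-6 and 10.3, 1.16 and 4.65 in ap1-15, against 22.7, 26.5 and 16.7 in Col-0. It rose by 1.54 ± 0.17 (adjusted p = 2.07e-07) in ufo-1 and by 1.49 ± 0.17 (adjusted p = 1.8e-07) in ap3-6, and fell by 1.21 ± 0.17 (adjusted p = 3.66e-06) in ap1-15. Neither was set against the other 6 mutants.

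**Figure D5:**
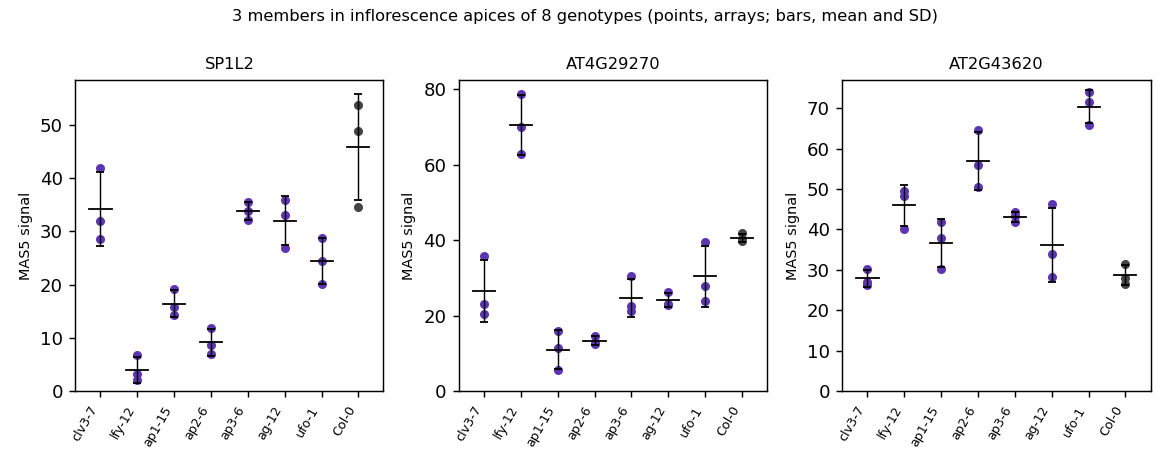
Signals of SP1L2, AT4G29270 and AT2G43620 in inflorescence apices of 7 mutants and, at the right of each panel, Col-0, with a point per array and bars for mean and SD (n = 3). SP1L2 was lowest in lfy-12, AT4G29270 highest in lfy-12 and lowest in ap1-15, and AT2G43620 highest in ufo-1.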

How the data were processed

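Total RNA of 42 samples, in 14 groups of 3, was hybridised to Affymetrix arrays, 1 array a sample. The deposited values are linear signals per probe set, made with MAS5 per the submitters' processing notes, in a version not given in the sources used here. Trimmed means lay between 99.2 and 99.4 and medians between 36.3 and 45.7 on all arrays, and no further normalization was applied. Arrays of a group correlated at 0.986 to 0.994 across probe sets. Arrays have no read depth, and their number limits the precision.

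The members and the gene lists were chosen with earlier results of these data known, and families were assigned from background knowledge after the members were seen. Comparisons without the hypocotyl used log2(signal + 8) and limma (version 3.58.1, in R 4.3.3), fitted by lmFit and moderated by eBayes with a trend of variance on level. One fit held the 18 arrays of the 6 other Col-0 groups and one the 24 arrays of inflorescence apices. A probe set entered a fit if its signal exceeded the 40th percentile of that array on at least 3 arrays, which kept 15722 and 14627. Tests were two-sided, with Benjamini-Hochberg adjustment across all probe sets kept. The fits were tested on simulated data with known changes.

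Named genes were the 12 members with 1 gene and the largest margins, the 5 of highest hypocotyl signal, up to 5 members with a gene name and the largest called differences in each comparison, the 3 nearest the limit on either side, neighbours in gene order and the 5 genes left out by name. Other members are named for their family, after their values were seen. Gene names come from the platform annotation and gene order from the TAIR10.1 annotation. Sequences were not used here. Tables and figures were made with Python 3.11.15, pandas 2.3.3, numpy 2.4.6 and matplotlib 3.10.9. The alternatives were other normalizations, offsets, filters, variance models, sets of arrays in a fit, a replicate block, other groups in place of Col-0, and each array left out in turn.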

Additional observations from a re-analysis of the deposited data

How the results depend on the processing

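The number of members, 101, was 254 with a margin of 1.5, 61 with a margin of 3 and 42 with the offset multiplied by 4, and 99 to 102 when each hypocotyl array was left out. The larger offset lowers every margin by construction. Filters change which members are tested, so counts moved with them; the share of all probe sets called is in parentheses. Without a filter, over all 101 members, 60 passed the F test over organs (77.3%) and 20 that over genotypes (45.9%). In single comparisons 23 were called in the vegetative apex with young leaves (32.9%), 29 between internode and inflorescence apex (65.2%), 11 in ap1-15 (17.3%), 10 in ap2-6 (12.9%), 10 in ap3-6 (14.5%) and 7 in ufo-1 (11.4%). The 60th percentile filter left 15 members in the organ fit and 4 in the genotype fit, and all 15 (99.2%) and all 4 (77.5%) passed the F tests. Of the 15, 13 were called in the transition apex (60%), 11 between internode and node (65.1%) and 12 between internode and inflorescence apex (89%). Of the 4, 1 was called in clv3-7 (23.6%), 1 in lfy-12 (31.5%), 2 in ap1-15 (32.4%), 2 in ap2-6 (24.1%), 3 in ap3-6 (28.2%) and 1 in ufo-1 (22%). In clv3-7 the count of 2 was 1 with the offset divided by 4 and 1 to 2 when an array was left out. Samples of the same letter did not deviate together across groups (median correlation 0.0004 over 273 pairs, -0.0025 over 546 pairs of different letters), so letters were not used to pair samples. With the letter as a replicate block that count was 1, and the block moved no other count by over 1.5 times. With the mean of the other 6 mutants in place of Col-0 the count was 6 in clv3-7 (32.7% of all probe sets called, against 19.1% with Col-0), 6 in ag-12 (29.2%, against 26.9%) and 8 in ufo-1 (22.2%, against 18.8%). Signs turned under the same change for AT4G29270 in clv3-7 (0.051), AT2G43620 in ap3-6 (-0.013) and SP1L2 in ufo-1 (0.29). AT3G62930 between internode and inflorescence apex turned to 0.27 with the mean of the 7 mutants, a reference chosen after seeing the data. The cause was not tested. Of the 34 tested differences of single named genes, 24 kept their direction and their call under every alternative in which the gene was fitted. A gene removed by another filter was not fitted there, so its call was not checked under that filter. Counts when an array was left out ranged from 26 to 27 for organs and 11 to 12 for genotypes in the F tests, 11 to 14 for young leaves, 19 to 21 for the transition apex, 13 to 17 for internode against node and 17 to 20 for internode against inflorescence apex. Signals under the offset are near background, so the size of such differences is uncertain.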
